A study of Mus musculus with 4 samples.

Results

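The genes described here supply and use reducing power against oxidants. They are the NRF2 control genes, the glutathione and thioredoxin systems, the peroxiredoxins, the peroxidases, superoxide dismutases and catalase, the enzymes that supply NADPH, the glutaredoxins and methionine sulfoxide reductases, and the quinone and biliverdin reductases. They were chosen by symbol, and all 41 were found among the 11489 genes of the deposited expression table. RNA-seq libraries were prepared from total RNA of the ileum of wild-type C57BL/6J mice aged 8 weeks. The vehicle group, labelled DMSO, and the group given pregnenolone-16α-carbonitrile (PCN, 40 mg/kg) each received 3 intraperitoneal injections spaced 8 h apart and were killed 8 h after the last one, and the solvent was a mixture of DMSO and corn oil. PCN is a steroid ligand of the mouse pregnane X receptor (PXR, gene Nr1i2), and no mice carried a deletion or transgene. Each group had 2 libraries (n = 2 throughout), and the labels do not tie them to separate animals, so p-values measure the spread between these libraries, which may be technical.

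NRF2 (gene Nfe2l2) is the transcription factor that switches on many antioxidant genes. In resting cells the adaptor KEAP1 hands NRF2 to a ubiquitin ligase and it is degraded. Oxidants and electrophiles modify cysteines of KEAP1, NRF2 then accumulates, pairs with a small MAF protein and binds antioxidant response elements. Genes known for this control include Nqo1, the glutamate-cysteine ligase subunits Gclc and Gclm, Txnrd1, Srxn1 and the pentose phosphate enzymes. Thioredoxin and glutathione pass electrons to peroxidases and to oxidised proteins, and both are recharged by reductases that draw on NADPH. The question put to the data was whether such NRF2-type genes moved with PCN. The NRF2-type members were the 15 genes Nqo1, Gclc, Gclm, Gsr, Txn1, Txnrd1, Srxn1, Prdx1, Gpx2, G6pdx, Pgd, Tkt, Taldo1, Me1 and Sqstm1.

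The core of an antioxidant response element was searched for as TGACNNNGC on both strands of promoter windows that run from 250 bases before to 50 bases after each annotated start (RefSeq, GRCm38.p6). A window was given for 37 of the 41 members, and the windows of Gclc, Gsr, Prdx6 and Msra were not used here. The core stood in 53.8% of the NRF2-type genes with a window (7 of 13), in 12.5% of the other members (3 of 24), and in 14.0% of all 27025 genes with one. The sequences below are those of the 5 NRF2-type members with a core centred before the RefSeq start. They are shown because they carry the letters by which NRF2-type control is usually recognised. They are printed on the strand that reads TGAC, with the core in capitals.
Prdx1, chr4:116685456-116685485, minus strand: cctacgggggaTGACTCAGCgctttccctg
Me1, chr9:86695901-86695930, minus strand: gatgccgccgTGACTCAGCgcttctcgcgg
Gclm, chr3:122245413-122245442, minus strand: ctcgtgagagtTGACGGTGCgcccgggagc
Txnrd1, chr10:82859104-82859133, minus strand: ccgtgtcagaaTGACAAAGCaaaaatccag
G6pdx, chrX:74428918-74428947, plus strand: ggcgtgtgcttTGACTGAGCtgacccgcct

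The cores of Prdx1 and Me1 were identical, and both also contain TGACTCA, the motif of AP-1 factors. The core was centred 129 bases before the RefSeq start in Prdx1, 130 before it in Gclm, 88 before it in Txnrd1, 53 before it in G6pdx and 2 before it in Me1. The G6pdx and Me1 transcripts in the expression table start elsewhere in GENCODE M21, at chrX:74429194 and chr9:86695953. Both genes lie on the minus strand, so their cores are downstream of those starts. Srxn1 and Pgd held a core downstream of an annotated start, centred 32 and 7 bases after it. Among the remaining members Nfe2l2, Blvra and Sod1 held one. The window of Nqo1, the gene most often used to read NRF2 activity, held none, which says only that these letters do not occur in this window. A match is a description of the letters and not a measured binding site.

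None of the 41 members passed the test in either direction. Values were FPKM (fragments scaled to transcript length and to the mapped total of the library), summed over the transcripts of a gene, and the test was limma on log2(FPKM + 1) over all 11103 genes whose mean reached 1 FPKM, at a Benjamini-Hochberg adjusted p of 0.05. Among all genes 9 were higher in PCN (0.0811%) and 6 lower (0.054%). At an unadjusted p under 0.05, 1 member was higher, Glrx2, against 5.25% of all genes, and 2 were lower, Msrb1 and Gpx1, against 4.11%. The smallest adjusted p of a member was 0.316 (Glrx2). The members' log2 differences ran from −0.31 (Msrb1) to 0.51 (Glrx2).

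None of the NRF2-type genes passed the test. Of the 15, 3 had a positive and 12 a negative difference, with a median of −0.05 on the log2 scale beside 0.0029 over all tested genes. This split was not stable, since scaling the libraries to the same total turned it to 8 positive and 7 negative, and leaving out vehicle replicate 1 turned it to 9 and 6. It moved the other way, to 2 positive and 13 negative, without vehicle replicate 2 (median −0.17) and with a smooth muscle score (the mean log2 level of 10 smooth muscle markers) as covariate (median −0.22). The 95% interval of the difference spanned 0 in all 15. Its upper end was below 1.5-fold in all 15, and the highest upper end was 1.40-fold, for Nqo1. Among the 26 other members the median was −0.0033, with 12 positive and 14 negative.

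**Figure D1:**
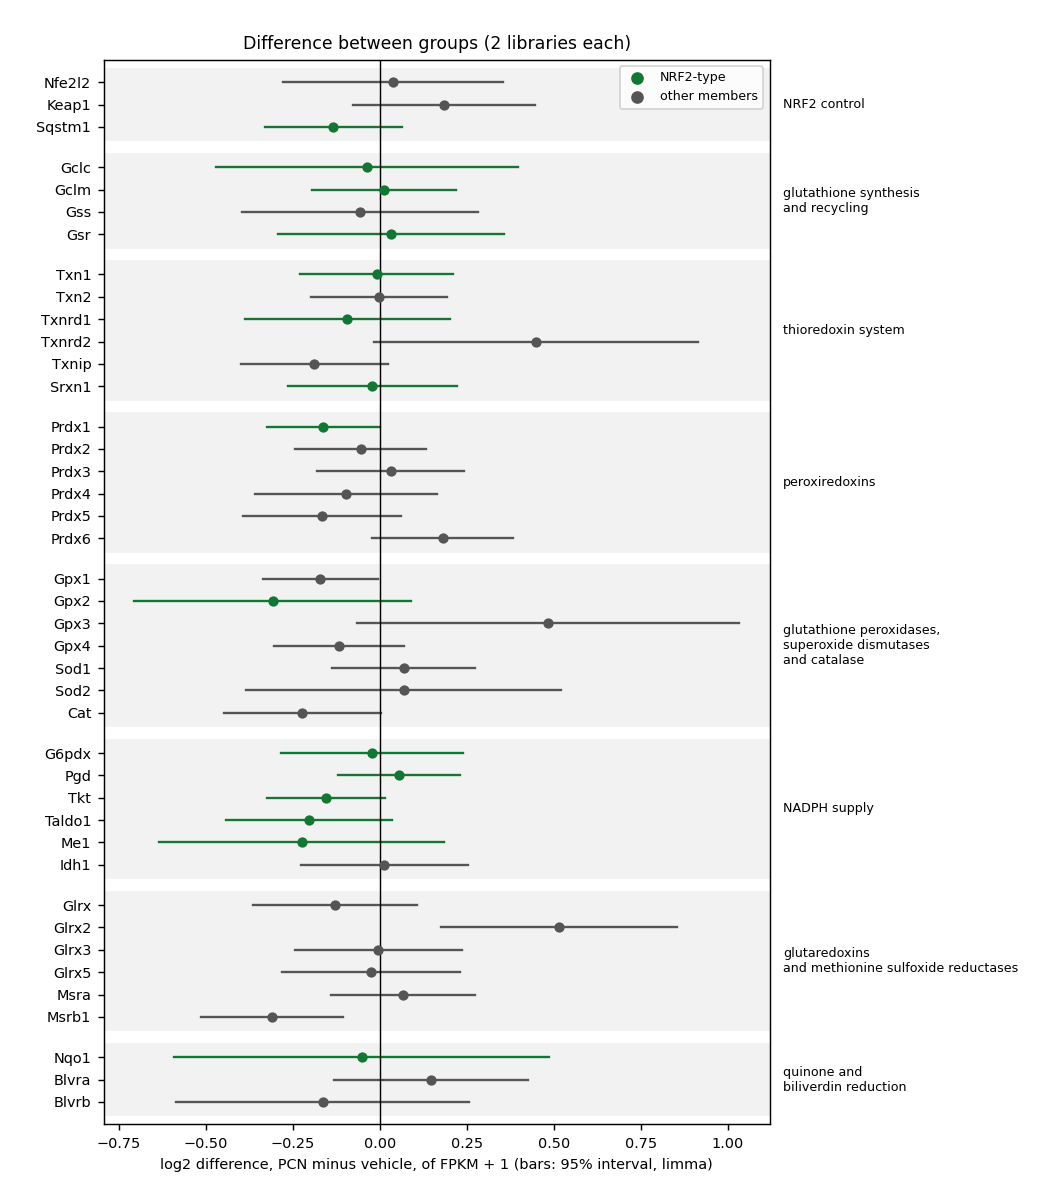
Difference in log2(FPKM + 1) between PCN and vehicle for each of the 41 members, grouped by role (n = 2 libraries per group). Points are the limma estimates and bars their 95% intervals, NRF2-type members are green, and 38 of the 41 intervals span 0, the exceptions being Glrx2 above 0 and Msrb1 and Gpx1 below it.

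Library by library, most members overlapped or lay slightly lower with PCN. In 7 members (Keap1, Txnrd2, Prdx6, Gpx3, Glrx2, Msra and Blvra) both PCN libraries lay above both vehicle libraries, against 21.1% of all genes. In 13 members (Sqstm1, Txnip, Prdx1, Prdx2, Prdx4, Prdx5, Gpx1, Gpx4, Cat, Tkt, Taldo1, Me1 and Msrb1) both lay below, against 19.1% of all genes, and in 21 the groups overlapped. None of the NRF2-type genes was among the 7, and 5 were among the 13. Here and below, such comparisons are of FPKM as deposited and were not repeated on libraries scaled to the same total. Vehicle replicate 2 had the largest total, 550832 against 481925 to 510900. Scaling lowers its values most, so members that lay below vehicle can then overlap. The members differed little between libraries of 1 group as well, with a median absolute log2 difference of 0.11 within vehicle and 0.11 within PCN. Over all tested genes it was 0.16 and 0.15. Between the group estimates it was 0.10 for the members and 0.14 over all tested genes. Values between group estimates are not a like measure, since they compare means of 2 libraries, which vary less than single libraries. Group means differed by under 15% in 35 of the 41 members and by over 25% in 3, Glrx2, Txnrd2 and Gpx3. The members together took 0.97% and 0.83% of all FPKM in vehicle replicates 1 and 2, and 0.88% and 0.89% in PCN replicates 1 and 2.

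Genes outside this set differed strongly between the same libraries. B3galt5, a galactosyltransferase gene, stood at 3.15 and 3.09 FPKM in vehicle against 34.7 and 34.8 in PCN (log2 difference 3.12, adjusted p = 0.0115). Cyp3a11, the classical PXR target, stood at 26.1 and 14.7 FPKM against 163 and 214, a log2 difference of 3.19 that narrowly missed the threshold (adjusted p = 0.0640). Total FPKM ran from 481925 to 550832 per library, and the number of reads is not recorded in FPKM. Other cell types also moved with the groups. The summed FPKM of 10 smooth muscle markers was 330.4 and 660.2 in vehicle against 180.3 and 227 in PCN, with a negative difference in 10 of 10 and both PCN libraries below both vehicle libraries in 8. The 9 enterocyte markers summed to 4309 and 4176 against 4243 and 3695. Both PCN libraries were below in 7 of them and above in 1. Anpep, which overlapped, made up the largest part of that sum. Fabp2 was lower past the threshold, at 50.5 and 46.8 FPKM against 9.45 and 12.3 (log2 difference −2.08, adjusted p = 0.0397). The 6 T and natural killer cell markers summed to 154 and 154 against 226 and 199.97, and the 6 plasma and B cell markers to 745 and 734 against 966 and 1009. In bulk tissue fewer cells of a type and less RNA per cell cannot be told apart, and the part of these shifts in the members' values was not tested beyond fits with the smooth muscle score as covariate. That fit leaves 1 residual degree of freedom, and the smallest adjusted p of a member in it was 0.375. The score itself was 4.18 and 5.06 in vehicle against 3.39 and 3.67 in PCN. It thus separated the groups, so the fit cannot tell the score well apart from PCN. No value of the fit shows how much of a difference came with muscle content. Its values are given for single members.

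**Figure D2:**
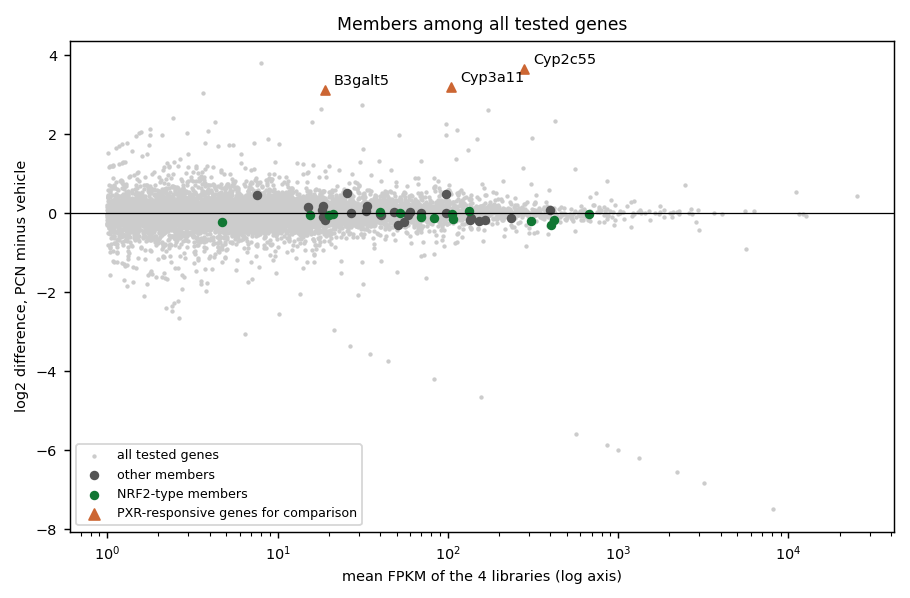
Mean FPKM over the 4 libraries (log axis) against the log2 difference between PCN and vehicle for 11103 tested genes (grey), the 15 NRF2-type members (green), the 26 other members (dark grey) and 3 PXR-responsive genes (orange triangles). The members lie between −0.31 and 0.51, while B3galt5, Cyp3a11 and Cyp2c55 lie at 3.12, 3.19 and 3.64.

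The control genes of the pathway did not pass the test. Nfe2l2 itself stood at 64.2 and 54.0 FPKM in vehicle against 65.0 and 56.2 in PCN, so the pairs overlapped almost completely (log2 difference 0.04, 95% interval −0.28 to 0.35, and −0.31 with the smooth muscle score as covariate). Keap1, which holds NRF2 in check, stood at 17.6 and 17.0 against 19.0 and 20.7, with both PCN libraries above (0.19, adjusted p = 0.661). Sqstm1 encodes p62, an autophagy adaptor that can bind KEAP1 and release NRF2. Its libraries stood at 89.1 and 85.0 FPKM against 82.3 and 76.4, both PCN values below (−0.13, adjusted p = 0.678). NRF2 is regulated mainly as a protein, which these libraries do not measure.

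Nqo1 reduces quinones by transfer of electron pairs and is a standard readout of NRF2. The gene lies at chr8:107388225-107403206 on the minus strand (ENSMUSG00000003849.8, GENCODE M21). Its FPKM was 19.0 and 13.0 in vehicle against 16.7 and 13.7 in PCN. Both PCN values lay between the vehicle values. The log2 difference was −0.05 with a 95% interval of −0.59 to 0.49, the widest in the NRF2-type set, which reaches from 0.66-fold to 1.40-fold. Of the 3 transcript records summed for Nqo1, 1 was listed at 2.32 FPKM in vehicle replicate 1 and at 0 in the other libraries. That value was shared to every digit with another gene, and without it that library would stand nearer to the rest. The main record alone stood at 15.3 and 12.0 against 15.4 and 12.5, so there PCN replicate 1 was the highest library. The difference depended on single libraries, being 0.21 without vehicle replicate 1, −0.31 without vehicle replicate 2, −0.19 if PCN replicate 1 was left out and 0.08 if PCN replicate 2 was, and it was −0.73 with a smooth muscle score as covariate. The biliverdin reductases Blvra and Blvrb turn the heme breakdown product biliverdin into bilirubin. Blvra stood at 13.5 and 14.96 FPKM against 15.7 and 16.0, and Blvrb at 18.3 and 21.7 against 20.1 and 15.5, with adjusted p of 0.727 and 0.802.

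The genes of glutathione synthesis and recycling overlapped between groups in 4 of 4 cases. Gclc, the catalytic subunit of the rate-limiting ligase, stood at 23.5 and 17.1 FPKM in vehicle against 18.8 and 20.3 in PCN. Its log2 difference of −0.04 was 0.18 without vehicle replicate 1, −0.25 without vehicle replicate 2 and −0.49 with a smooth muscle score as covariate. Its modifier subunit Gclm stood at 53.8 and 50.4 against 53.9 and 51.3, a log2 difference of 0.01 with a narrow interval of −0.19 to 0.22. Gclm carries an element core in its promoter window, shown above, and its PCN mean differed from the vehicle mean by 0.857%. Gss, which adds glycine in the second step, stood at 45.8 and 37.3 FPKM against 42.4 and 37.3 (−0.06, and −0.45 with that covariate). Gsr, which reduces oxidised glutathione with NADPH, stood at 39.9 and 39.1 against 36.1 and 45.3. The 4 genes summed to 154 ± 13.5 FPKM (SD, n = 2) in vehicle and 153 ± 2.13 in PCN.

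**Figure D3:**
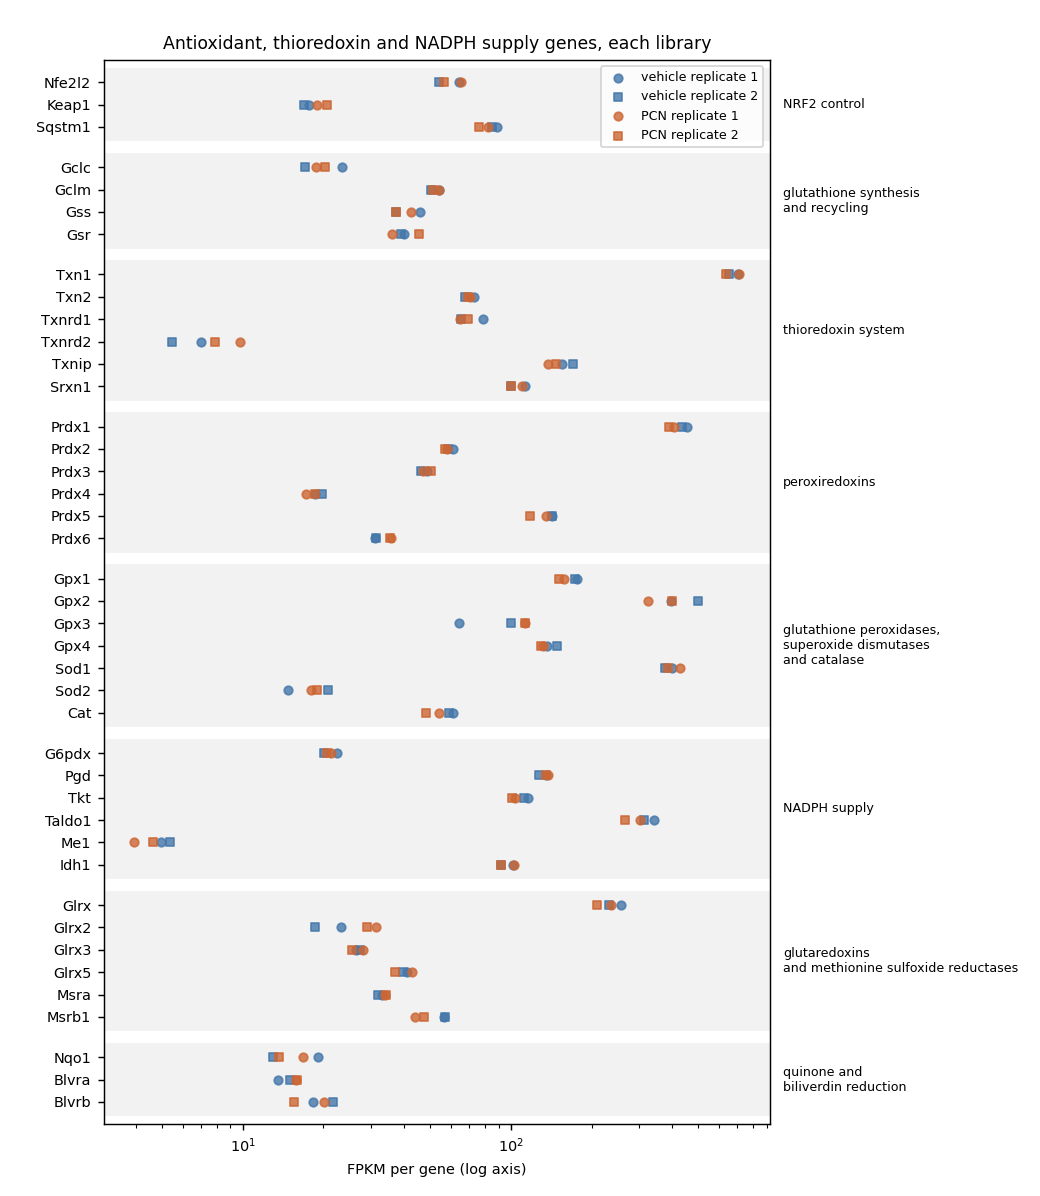
FPKM of each member in each library on a log axis, grouped by role (blue, vehicle; orange, PCN; circles, replicate 1; squares, replicate 2). The median absolute log2 difference is 0.11 between the 2 single libraries of each group. It is 0.10 between the group estimates, which are means of 2 libraries and so vary less. Levels run from Me1 at about 4.72 FPKM on average to Txn1 at about 676.

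In the thioredoxin system the most abundant member of all, Txn1, was level. This cytosolic thioredoxin stood at 704 and 650.5 FPKM in vehicle against 712 and 636 in PCN (−0.01, 95% interval −0.23 to 0.21). Txn2, its mitochondrial counterpart, stood at 72.8 and 67.5 against 70.5 and 69.4. Txnrd1, the cytosolic thioredoxin reductase and an NRF2-type selenoprotein with an element core in its window, stood at 78.9 and 65.1 against 64.9 and 69.4 (−0.09, 95% interval −0.39 to 0.20, and −0.37 with a smooth muscle score as covariate). Srxn1, the sulfiredoxin that rescues over-oxidised peroxiredoxins, stood at 113 and 100.4 against 110.4 and 99.8 (−0.02, 95% interval −0.26 to 0.22). In these 4 genes the groups overlapped. Txnip binds and inhibits thioredoxin, and its FPKM was 155 and 171 in vehicle against 138 and 148 in PCN. Both PCN values were below, but the difference of −0.19 did not pass the test (adjusted p = 0.566), and with a smooth muscle score as covariate it was 0.0052.

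Txnrd2, the mitochondrial thioredoxin reductase, stood apart from its cytosolic relative. Its FPKM was 6.98 and 5.47 in vehicle against 9.79 and 7.91 in PCN, so both PCN libraries lay above both vehicle libraries at a low level. The log2 difference was 0.45 ± 0.18 (SE), with an unadjusted p of 0.0559 and an adjusted p of 0.547. Its main transcript alone (ENSMUST00000115606.7) stood at 4.31 and 3.78 against 6.54 and 5.95. With a smooth muscle score as covariate the Txnrd2 difference was 0.0072.

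The peroxiredoxins reduce peroxides, most of them with electrons from thioredoxin. Both PCN libraries lay below both vehicle libraries in 4 of the 6 (19.1% of all genes) and above in 1 (21.1% of all genes), and none passed the test. Prdx1, the NRF2-type member among them, stood at 454 and 436 FPKM in vehicle against 405 and 390.1 in PCN. Its groups did not overlap in FPKM as deposited, and the difference was small, −0.16 ± 0.06 (SE), or 10.7% of the vehicle mean (unadjusted p = 0.0501, adjusted p = 0.534). With the same total FPKM in each library the difference was −0.11. Prdx1 is one of the genes whose promoter window holds the core overlapping AP-1. Prdx5 stood at 142 and 142 against 136 and 118, Prdx2 at 61.1 and 58.1 against 57.6 and 57.0, and Prdx4 of the endoplasmic reticulum at 18.6 and 19.8 against 17.2 and 18.6. The mitochondrial Prdx3 overlapped, at 48.7 and 46.4 against 47.0 and 50.3. Prdx6, which uses glutathione in place of thioredoxin, ran the other way, at 31.1 and 31.4 FPKM in vehicle against 35.7 and 35.4 in PCN (0.18 ± 0.08, SE; unadjusted p = 0.0712, adjusted p = 0.566). The spread within each Prdx6 group was 0.250 FPKM (SD). The 6 genes summed to 745 ± 14.95 FPKM (SD, n = 2) in vehicle and 684 ± 20.2 in PCN.

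Glutathione peroxidases reduce peroxides at the expense of glutathione. Gpx1, the ubiquitous form, stood at 176 and 173 FPKM in vehicle against 158 and 152 in PCN, both PCN values below. Its log2 difference was −0.17 ± 0.06 (SE), with an unadjusted p of 0.0447 and an adjusted p of 0.511. Gpx2, the form of the gut epithelium and an NRF2-type gene, stood at 395 and 500.5 against 324 and 398. One vehicle and one PCN library were level, and the difference of −0.31 (unadjusted p = 0.103, adjusted p = 0.620) moved to −0.48 without vehicle replicate 1, to −0.14 without vehicle replicate 2, to −0.46 without PCN replicate 2 and to −0.16 without PCN replicate 1. With a smooth muscle score as covariate it was reversed, at 0.18. Gpx4, which protects membrane lipids from peroxidation, stood at 136 and 148 against 132 and 130.05 (−0.12, adjusted p = 0.691).

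Gpx3 is the secreted plasma form. Its FPKM was 64.1 and 101 in vehicle against 113 and 113 in PCN. The vehicle libraries were far apart and the PCN libraries level. The log2 difference was 0.48 ± 0.21 (SE), with an unadjusted p of 0.0724 and an adjusted p of 0.566. It rested on 1 library, being 0.16 without vehicle replicate 1 and 0.81 without vehicle replicate 2. With a smooth muscle score as covariate it was 1.21.

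Superoxide dismutases and catalase dispose of superoxide and of hydrogen peroxide. Sod1 of the cytosol stood at 399 and 376 FPKM in vehicle against 428 and 385 in PCN, and Sod2 of mitochondria at 14.8 and 20.8 against 18.02 and 18.9. Both overlapped, with differences of 0.07 and 0.07. That of Sod2 was −0.16 without vehicle replicate 1, 0.30 without vehicle replicate 2 and 0.62 with a smooth muscle score as covariate. That of Sod1 was −0.08 with the covariate. Cat, the peroxisomal catalase, stood at 60.8 and 58.8 against 54.0 and 48.3, both PCN values below. The difference was −0.22 ± 0.09 (SE), with an unadjusted p of 0.0520 and an adjusted p of 0.539.

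NADPH comes from the pentose phosphate pathway, malic enzyme and isocitrate dehydrogenase. The NADPH-making enzymes of the pentose phosphate pathway, G6pdx and Pgd, overlapped between groups. G6pdx, the entry enzyme, stood at 22.4 and 20.1 FPKM in vehicle against 21.3 and 20.6 in PCN (−0.02, 95% interval −0.28 to 0.24). Pgd, the next NADPH-producing step, stood at 135 and 127 against 138 and 135 (0.06, 95% interval −0.12 to 0.23). The sugar-exchanging enzymes Tkt and Taldo1 lay lower in both PCN libraries. Tkt stood at 116 and 112 against 103 and 100.8 (−0.15 ± 0.07, SE; unadjusted p = 0.0666, adjusted p = 0.561). Taldo1 stood at 342 and 313 against 304 and 266 (−0.20 ± 0.09, SE; unadjusted p = 0.0813, adjusted p = 0.588), a difference that was −0.11 without PCN replicate 2 and −0.42 with a smooth muscle score as covariate. Malic enzyme Me1, which shares its element core with Prdx1, was the least abundant member, at 4.96 and 5.35 against 3.94 and 4.61 (−0.22, 95% interval −0.63 to 0.18). Cytosolic isocitrate dehydrogenase Idh1 overlapped, at 102 and 91.7 against 103 and 92.2.

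The 2 members with the smallest p-values were both in 1 group, the glutaredoxins and methionine sulfoxide reductases, and they differed in opposite directions. Glrx2 encodes a glutathione-dependent glutaredoxin known from mitochondria. The gene lies on chromosome 1 (chr1:143716338-143749676, plus strand, ENSMUSG00000018196.18 in GENCODE M21). It stood at 23.2 and 18.7 FPKM in vehicle against 31.4 and 29.0 in PCN, so the groups did not overlap and the gap between them was wider than the gap within either. The log2 difference was 0.51 ± 0.13 (SE), 1.43-fold on the scale of FPKM + 1 with a 95% interval of 1.13 to 1.81 (unadjusted p = 0.0115, adjusted p = 0.316). The transcript ENSMUST00000111957.9, with 4 exons and 123 codons, carried 91.6% of the FPKM and stood at 22.2 and 16.2 against 28.6 and 26.8. Whether its product reaches mitochondria was not tested. The next statements are again on the gene sum of Glrx2. The difference was positive in each fit that left out 1 library, between 0.36 and 0.66, and was 0.14 with a smooth muscle score as covariate.

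Msrb1 is a selenoprotein that repairs oxidised methionine of the R form, encoded on chr17:24736642-24742778 (plus strand, ENSMUSG00000075705.12). It stood at 56.3 and 57.0 FPKM in vehicle against 43.9 and 47.3 in PCN, with no overlap. The log2 difference was −0.31 ± 0.08 (SE), 0.81-fold with a 95% interval of 0.70 to 0.93 (unadjusted p = 0.0116, adjusted p = 0.319). It stayed between −0.36 and −0.26 when 1 library was left out, and was −0.25 with a smooth muscle score as covariate. Msra, which repairs the S form, stood at 33.2 and 31.9 against 34.0 and 34.2 (0.07, adjusted p = 0.842). The other glutaredoxins overlapped between groups. Glrx, the cytosolic form, stood at 257 and 232 against 236 and 210.5. Glrx3 and Glrx5, which handle iron-sulfur clusters, stood at 26.4 and 27.3 against 28.1 and 25.6, and at 41.2 and 39.7 against 42.6 and 37.0. The 7 selenoproteins among the members had both PCN libraries below in 3 (Gpx1, Gpx4 and Msrb1, against 19.1% of all genes), above in 2 (Gpx3 and Txnrd2, against 21.1%) and overlapping in 2 (Gpx2 and Txnrd1).

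**Figure D4:**
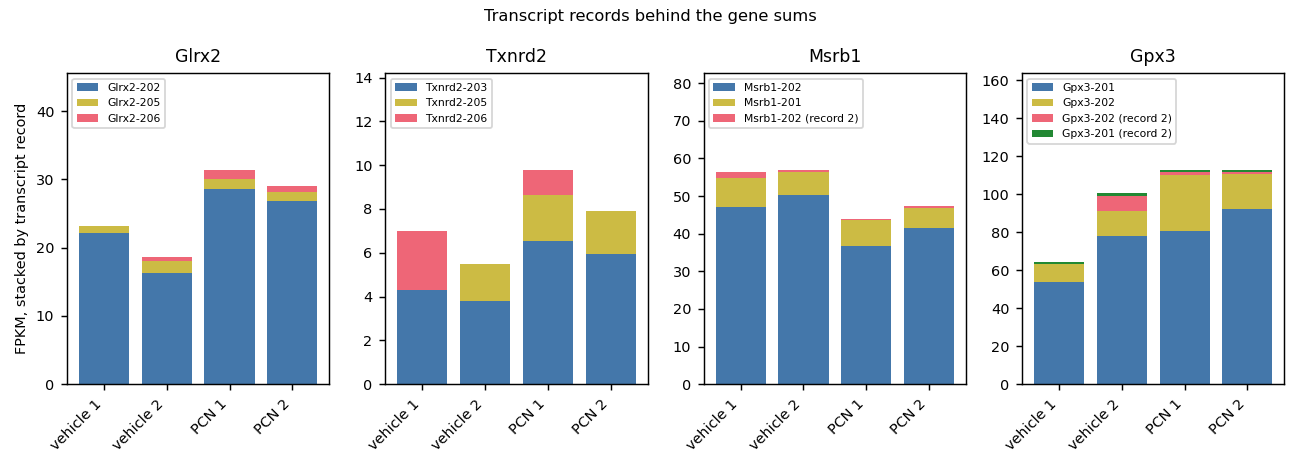
FPKM of the transcript records summed for Glrx2, Txnrd2, Msrb1 and Gpx3 in each library, stacked, with GENCODE transcript names. For Glrx2 and Msrb1 1 record makes up most of each bar and follows the gene sum, while minor records of Txnrd2 and Gpx3 come and go between libraries of a group.

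Further genes of the same pathways were counted from lists that hold no member. Of 24 other NRF2 partners and targets 21 were tested, 11 above and 10 below 0 in their log2 difference (median 0.01), and 0 passed the test. At an unadjusted p under 0.05, 3 were higher and 1 lower, beside the 5.25% and 4.11% of all genes given above. The smallest p-values belonged to Fth1, the ferritin heavy chain, and Gsta4, a glutathione transferase for lipid aldehydes. Fth1 stood at 1813 and 1934 FPKM in vehicle against 3028 and 3076 in PCN (0.70, adjusted p = 0.0650). Gsta4 stood at 17.8 and 12.7 against 51.1 and 46.3 (1.63, adjusted p = 0.0650). Both were higher in 2 of 2 PCN libraries and narrowly missed the threshold. Hmox1, the heme oxygenase known as an NRF2 target and named here after its values were seen, stood at 4.19 and 4.19 against 3.54 and 4.29.

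Of 26 other glutathione and selenoprotein genes, all were tested, 10 above and 16 below 0 (median −0.02), and 0 passed. The smallest p-values were those of Ggct and Chac1, which both encode enzymes that split gamma-glutamyl peptides. Ggct stood at 5.21 and 7.20 FPKM against 2.92 and 2.48 (−0.95, adjusted p = 0.238), and Chac1 at 1.60 and 0.988 against 3.11 and 3.15 (0.86, adjusted p = 0.308). They thus lay on opposite sides. Of 15 other NADPH genes 14 were tested, 10 above and 4 below 0 (median 0.09), and 0 passed. Rpia, the ribose phosphate isomerase of the pentose phosphate pathway, stood at 20.2 and 18.6 against 25.2 and 25.7 (0.37, adjusted p = 0.308). At an unadjusted p under 0.05, 1 glutathione or selenoprotein gene was higher and 3 were lower, and 3 NADPH genes were higher and 0 lower, beside 5.25% of all genes higher and 4.11% lower.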

How the data were processed

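Ileum libraries of 2 vehicle-treated and 2 PCN-treated mouse samples were compared, grouped by the labels. Values were FPKM per transcript as deposited by the authors, in a table of protein-coding transcripts (21160 records, 11489 genes). The submitters' processing notes name the build mm10. For aligner and quantifier the entry is not given in the sources used here. Sequencing methods in the supplement describe another tissue, kit and genome and were not taken as the source. FPKM holds no read counts. Relative depth was not estimated here, and no counting interval is given.

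Values were added up over the transcripts of each symbol. The 11103 genes whose mean reached 1 FPKM entered limma 3.58.1 (R 4.3.3) as log2(FPKM + 1), with the variance modelled on the mean, no replicate block and 2 residual degrees of freedom, and p-values were adjusted over all of them by the Benjamini-Hochberg method. Fold changes on this scale understate the change of low genes. The fit was tested on simulated data. The members, roles, lists and tests were chosen with earlier results of these data known. All members are given by role, with full statistics for up to 12 members of smallest unadjusted p. Genes of other lists are named only if past the threshold or among the 2 of smallest p in their list, apart from Hmox1 and Cyp2c55. Cyp2c55 is shown in a figure for comparison. The element core was searched in RefSeq promoter windows of GRCm38.p6, and neighbouring exons come from GENCODE M21, where 11 members have an exon that overlaps one of another gene, 5 of them a protein-coding gene in the table. Reads shared with such neighbours, or with pseudogene copies of Gpx2, Gpx4 and Prdx6, could not be separated. Of 95 member transcript records 18 shared a value to every digit with another gene in at least 1 library. Of the other glutathione and selenoprotein genes 7 were matched under older symbols. Alternatives were other pseudocounts, filters and scalings, the most abundant transcript, a replicate block, leaving out each library, and a smooth muscle score as covariate.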

Additional observations from a re-analysis of the deposited data

How the results depend on the processing

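No member passed the adjusted threshold, in either direction, under any of the 14 alternatives, where the smallest adjusted p of a member ran from 0.163 to 0.671. The members' median log2 difference (−0.03) was 0.029 with the same total FPKM in each library, −0.13 with the smooth muscle score as covariate, and between −0.0663 and 0.0474 when 1 library was left out, a fit in which the lone library of a group is assumed to vary like the other group. The split of the members, 15 positive and 26 negative, became 23 and 18 with the same total, 20 and 21 with the most abundant transcript, 22 and 19 without vehicle replicate 1, 22 and 19 without PCN replicate 2, 12 and 29 without vehicle replicate 2 or without PCN replicate 1, and 14 and 27 with the covariate. With the covariate, which separates the groups and leaves 1 residual degree of freedom, Txnip moved to 0.0052 and Gpx2 to 0.18. Members past an unadjusted p of 0.05, 1 higher and 2 lower, became 2 and 0 with the same total and 1 and 5 with log2 values centred on the median. Of the 41 members 17 kept their sign in every alternative that fitted them, 7 positive and 10 negative. Among these, Me1 was not fitted at a mean of at least 5 FPKM. The filters, the fit without the trend and the replicate block leave the estimate as reported, so no sign could change there.

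The count over all genes, 9 higher and 6 lower, was less stable: 34 and 22 with a mean of at least 5 FPKM, 24 and 13 with the same total, 2 and 0 without the trend, 7 and 0 with the most abundant transcript, 5 and 4 with a pseudocount of 0.1, 6 and 4 without a filter, 8 and 12 without vehicle replicate 1, and 0 and 0 without any other library or with the covariate.

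With a replicate block 0 members passed in either direction, with 3 higher and 6 lower at an unadjusted p under 0.05, and 39 genes were higher and 21 lower over all. Deviations of same-numbered libraries from their group means correlated at 0.034 over all genes and at 0.35 over the members. Replicate 1 was the higher library in both groups in 22 of the 41 members (53.7%, against 31.3% of all genes). Replicate 2 was the higher in both in 8 members, against 2310 of all 11103 genes. The labels give only a shared number, and whether same-numbered libraries share a source was not tested. With 2 libraries per group, the intervals are the limit on what could be seen.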
